A study of Mus musculus with 6 samples.

Results

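The genes described here encode enzymes that remove superoxide and peroxides. They are the superoxide dismutases Sod1, Sod2 and Sod3, catalase (Cat), the glutathione peroxidases Gpx1, Gpx4 and Gpx8, and the peroxiredoxins Prdx1, Prdx4 and Prdx6. These 10 genes, of 35905 genes matched in the files, were chosen by name with earlier results of the same comparison known, Sod3 for being among its largest falls. Their differences between the lines are therefore given as a description, with no test of their own. All 10 passed the filter on low counts.

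Superoxide arises when oxygen takes up a single electron, in mitochondria and at oxidase enzymes. Superoxide dismutases turn it into hydrogen peroxide and oxygen, with copper and zinc in Sod1 and Sod3 and manganese in Sod2. Catalase breaks down hydrogen peroxide directly, glutathione peroxidases such as Gpx1 spend glutathione on it, and most peroxiredoxins are recharged by thioredoxin. In tumour cells these enzymes set how much peroxide a cell tolerates and how much of it acts as a signal.

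RNA was sequenced from 2 lines derived from EO771, a mouse mammary tumour line, with 3 libraries of each. The labels call the first EO771-tdT-Parental (Parental here) and the other EO771-tdT-LM2 (LM2 here). Both lines are labelled WT in genotype, and both were grown for 48 h in RPMI medium with 10% serum, to about 75% confluence. The labels do not say how LM2 was obtained, what tdT or the tag Ac6 in the Parental titles stands for, or whether the replicates were separate cultures. The p-values therefore weigh differences against a spread between libraries that may be technical.

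Each library held 33922699 to 45849019 estimated counts, and libraries of a line correlated at 0.991 to 0.994 across genes (log2 CPM), against 0.962 to 0.964 between lines. Of 6 markers of mammary epithelium, Krt8 was abundant (420 CPM in Parental and 568 CPM in LM2), Krt14 was at 1.11 and 8.47 CPM, and Krt18 (0.0449 and 0.125 CPM), Cdh1 (0.187 and 0.0938 CPM) and Krt5 (0.00918 and 0.0487 CPM) were close to 0. Epcam was at 0.154 CPM in Parental and between 14.6 and 15.3 CPM in LM2. Of the 6 markers Krt8 alone was abundant in both lines. Leukocyte markers summed to 4.20 to 4.52 CPM in Parental and 3.36 to 3.98 CPM in LM2, with Adgre1 at 0 in all libraries, and lung epithelium markers stayed at or below 0.286 CPM. Fibroblast markers summed to 126 to 129 CPM and 170 to 192 CPM, nearly all of it Pdgfra, which rose 1.44-fold (edgeR adjusted p = 7.08e-09). Dcn was at 0.0816 and 0.0781 CPM. Col1a2 fell from 0.926 to 0.232 CPM (edgeR adjusted p = 0.000553), the direction of Sod3. So did Lyz2, of the leukocyte markers (2.51 to 0.831 CPM), and Hba-a1, of the erythroid markers (1.53 to 0.545 CPM). Cd68, a leukocyte marker (1.75 to 2.68 CPM), and Cdh5, an endothelial marker (0.180 to 0.668 CPM), rose. Erythroid markers summed to 1.41 to 1.96 CPM and 0.297 to 1.21 CPM, and endothelial markers to 3.37 to 4.19 CPM and 4.12 to 4.54 CPM. Smooth muscle markers summed to 1.32 to 1.68 CPM in Parental and 3.59 to 4.63 CPM in LM2, mostly through Des (up 3.34-fold), with Cnn1 at 0.437 and 0.563 CPM and Myh11 at 0.0220 and 0.0568 CPM. The part of these markers in the results was not tested.

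The coding sequences of Gpx1, Gpx4, Gpx8 and Sod3 each show a feature of the enzyme. Gpx1 and Gpx4 are selenoproteins: a TGA codon inside the reading frame, elsewhere a stop, is read as selenocysteine at the active site, and that codon is in capitals here. Gpx8, a membrane protein of the endoplasmic reticulum, has a cysteine codon in the same place, found as the ungapped placement with most matching codon meanings (8 of 17 against Gpx4, next best 3). The stretches are from GENCODE M21 transcripts (GRCm38), 8 codons on each side.
Gpx1: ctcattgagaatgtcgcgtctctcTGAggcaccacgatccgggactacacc
Gpx4: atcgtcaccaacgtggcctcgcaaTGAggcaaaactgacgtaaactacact
Gpx8: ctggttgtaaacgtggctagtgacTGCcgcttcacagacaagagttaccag
The marked codon is codon 47 of Gpx1, codon 73 of Gpx4 and codon 79 of Gpx8. Sod3 ends in a run of basic residues that lets the secreted enzyme bind heparan sulfate outside the cell. Its last 84 coding bases are shown with arginine and lysine codons in capitals.
Sod3: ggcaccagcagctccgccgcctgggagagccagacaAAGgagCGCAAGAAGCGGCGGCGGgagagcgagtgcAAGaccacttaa
The stretch of Sod3 holds 8 such codons, and its densest window of 10 codons holds 7.

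Between the lines the superoxide dismutases went separate ways. Sod3, the secreted form, was 10.6-fold lower in LM2, whereas Sod1, the cytosolic form, was 1.12-fold higher, and Sod2, the mitochondrial form, was 1.09-fold lower in counts. Among the peroxide-removing enzymes Gpx1, Prdx1 and Prdx6 were higher in LM2, Gpx4 and Cat were lower, and Gpx8 and Prdx4, both of the endoplasmic reticulum, differed by 0.08 or less on the log2 scale. In the edgeR fit over all genes, 4 members had an adjusted p below 0.05 on the higher side and 4 on the lower side, beside 62.4% of all 13247 tested genes (31.4% higher and 31.1% lower). The same 8 members, 4 in each direction, had no overlap between the libraries of the lines in CPM, beside 67.0% of all genes (33.4% higher and 33.6% lower). Nothing is read from these counts, since the same contrast chose the members. The median absolute log2 difference was 0.20 over the members and 0.24 over all tested genes. Sod3 alone differed by over 1 on the log2 scale, beside 8.61% of all tested genes that passed and differed as much, and the other 9 members stayed below 0.5.

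Sod3 encodes the extracellular superoxide dismutase, which guards the matrix around cells. Its CPM (the count relative to library size, after TMM scaling) was 14.2, 15.1 and 16.1 in Parental replicates 1 to 3 and 1.48, 1.19 and 1.57 in LM2 replicates 1 to 3. The lowest Parental library thus stood far above the highest LM2 library. The log2 fold change (LM2 minus Parental) was -3.41 ± 0.11 (SE), the 14th lowest of 13247 genes, and the authors' deposited table gives -3.38. The estimated counts behind it were 1843 over the Parental libraries and 151 over the LM2 libraries, so Sod3 was low in LM2 but still counted in each library. Sod3 has a single transcript in the files, and only 0.485% of the 31-base words in it recur in transcripts of other genes. In bulk RNA, fewer cells with the transcript and less of it per cell cannot be told apart.

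Genes beside Sod3 on chromosome 5 differed far less. The 3 nearest tested protein-coding genes on one side were Dhx15, an RNA helicase, at -0.16 ± 0.02 (log2 fold change ± SE), Adgra3, an adhesion receptor, at -0.06 ± 0.04, and Kcnip4 at -0.51 ± 0.46. On the other side were Sepsecs, the enzyme that completes selenocysteine on its tRNA, at -0.29 ± 0.05, the lipid kinase Pi4k2b at 0.08 ± 0.04, and Zcchc4 at -0.35 ± 0.06. Dhx15 (edgeR adjusted p = 5.15e-06), Sepsecs (1.69e-05) and Zcchc4 (4.72e-05) fell, and the others did not pass. The median over all 811 tested genes of chromosome 5 was -0.000315. With 2 lines, likeness to Sod3 mostly picks genes with a similar fall in LM2, the contrast that chose Sod3. No result is therefore drawn from the genes whose 6 libraries followed Sod3 most closely. By Euclidean distance of log2(CPM + 0.1), centred on the Parental mean, among 9761 protein-coding genes with a mean of 5 CPM or more in either line, these were the splicing regulator Mbnl3 (distance 0.477), the secreted Wfdc1 (0.898), the Rac regulator Chn1 (1.17), the semaphorin Sema6d (1.22) and the kinesin Kif26a (1.42). Mbnl3 had 18.3 CPM in Parental and 2.04 CPM in LM2.

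Sod1 is the abundant cytosolic dismutase. Its CPM was 275, 279 and 281 in the Parental libraries and 325, 304 and 306 in the LM2 libraries, with every LM2 library above every Parental library. The log2 fold change was 0.16 ± 0.03 (SE). Ccs, the chaperone that hands copper to Sod1, rose alongside it, from 25.5 ± 0.236 to 30.1 ± 1.30 CPM (SD, n = 3 each), 1.18-fold with an edgeR adjusted p = 0.000242. Of the summed TPM (a relative level scaled for transcript length) of the 3 dismutase genes, Sod1 made up 85.7% ± 0.297 in Parental and 87.3% ± 0.0149 in LM2 (SD, n = 3 each). Sod3 made up 0.574% in Parental and 0.0488% in LM2. The dismutase total therefore went from 1089 ± 5.91 to 1222 ± 27.0 TPM while its secreted part became smaller. The shares and the total count all transcripts of Sod2, 150 TPM in Parental and 154 TPM in LM2. The protein-coding transcripts of Sod2 held 12.7 and 10.8 TPM, and those of Sod1 held 932 and 1065 TPM. On protein-coding transcripts alone Sod1 would make up a larger share, although the split of Sod2 is an estimate.

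Sod2 is the manganese enzyme of the mitochondrial matrix, and its small fall in counts was not seen once transcript length was weighed. Its CPM was 106, 106 and 107 in the Parental libraries and 99.1, 96.4 and 97.1 in the LM2 libraries, without overlap, for a log2 fold change of -0.12 ± 0.03 (SE). Its TPM was 152, 147 and 150 in Parental and 158, 153 and 152 in LM2, with overlap, a log2 ratio of 0.04. With effective length offsets in the edgeR fit the log2 fold change was 0.0069 and did not pass (edgeR adjusted p = 0.890). The authors' deposited table gives -0.29. The counts of the transcripts annotated as protein coding alone had a log2 ratio of -0.29, an alternative chosen after seeing the data. For Prdx6 the same ratio, 0.02, was far from the 0.18 of the authors' deposited table.

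Of the Sod2 transcripts over 5 TPM, only Sod2-201 had no overlap in TPM between the libraries of the lines. Sod2-201, the long protein-coding transcript of 5861 bases, was at 12.5 ± 0.117 TPM in Parental and 10.4 ± 0.119 TPM in LM2 (SD, n = 3 each). It held 45.4% of the counts of the gene in Parental and 40.6% in LM2, but only 8.33% and 6.76% of its TPM. Sod2-204, a retained-intron transcript of 644 bases, was at 89.2 ± 2.95 and 96.9 ± 5.04 TPM, and the processed transcript Sod2-207 at 46.2 ± 0.743 and 45.2 ± 1.41 TPM. Only 18.6% of the 31-base words of Sod2-204 and 2.44% of those of Sod2-207 are absent from the other Sod2 transcripts, against 78.2% for Sod2-201. Other genes also hold 26.7% of the words of Sod2, and the split between its transcripts is an estimate.

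**Figure D1:**
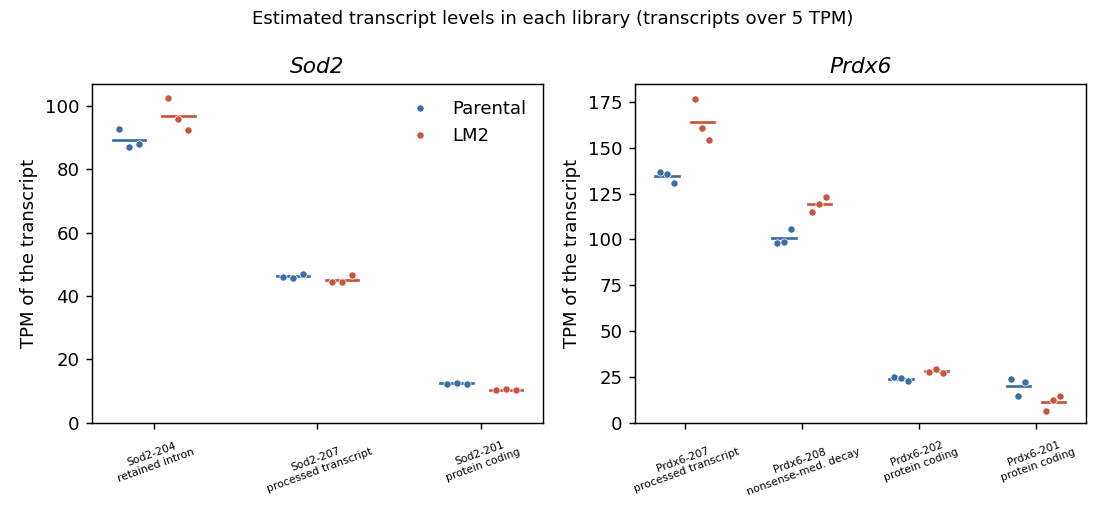
Estimated TPM (vertical axis) of each transcript over 5 TPM of Sod2 (left) and Prdx6 (right). Points are the 3 libraries of Parental (blue) and LM2 (red), and bars their means. Sod2-201 lay at 12.5 TPM in Parental and 10.4 TPM in LM2, below the short transcripts of the gene, and the protein-coding transcripts of Prdx6 lay below Prdx6-207 and Prdx6-208.

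Cat encodes catalase, which works inside peroxisomes. Its CPM was 104, 103 and 102 in the Parental libraries and 90.6, 85.6 and 89.4 in the LM2 libraries. All LM2 libraries were below all Parental libraries, and the log2 fold change was -0.21 ± 0.03 (SE), beside -0.22 in the authors' deposited table. Cat shares no 31-base word with another gene, and Cat-201 carried 98.4% of its TPM in Parental and 99.0% in LM2. The receptor and membrane proteins that bring enzymes into peroxisomes went both ways: of 15 tested, 6 rose and 4 fell, and the median log2 fold change was 0.04. Pex5, the receptor for most matrix enzymes, did not pass (105 and 108 CPM). Pex6, an ATPase that recycles the receptor, rose 1.62-fold, and Pex7, the second import receptor, fell 1.33-fold (edgeR adjusted p = 7.18e-12 and 1.39e-05).

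The glutathione peroxidases were the most uneven of the peroxide-removing families. Gpx1, the selenoenzyme of cytosol and mitochondria, had a CPM of 122, 117 and 113 in Parental and 167, 157 and 143 in LM2. The lowest LM2 library was above the highest Parental library, although the LM2 libraries spread more (SD 12.0 against 4.26 CPM). Its log2 fold change of 0.41 ± 0.06 (SE) was the highest of the members. Transcripts Gpx1-202 and Gpx1-201 shared the TPM in nearly the same parts in both lines, with 52.3% and 52.5% for Gpx1-202.

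Gpx4, the selenoenzyme that reduces lipid peroxides within membranes, went the other way. Its CPM was 147, 144 and 145 in Parental and 108, 108 and 104 in LM2, without overlap and with a log2 fold change of -0.45 ± 0.03 (SE). Gpx4 lies on chromosome 10, where 662 tested genes had a median of -0.33. The part of that chromosome-wide difference in the level of Gpx4 was not tested. Its pseudogene Gpx4-ps2 and 1 further gene hold 38.9% of the 31-base words of Gpx4, so reads can be misplaced between them. In TPM the order of Gpx1 and Gpx4 turned over, from 242 ± 7.55 for Gpx1 and 289 ± 2.95 for Gpx4 in Parental to 328 ± 24.9 and 215 ± 6.85 in LM2 (SD, n = 3 each). The sum of the 3 peroxidases was 606 ± 12.1 TPM in Parental and 617 ± 30.7 TPM in LM2, with library ranges that overlapped.

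Gpx8, which removes peroxide made during protein folding in the endoplasmic reticulum, had a CPM of 42.2, 41.1 and 39.6 in Parental and 42.1, 38.8 and 39.1 in LM2. The libraries of the lines overlapped, and the log2 fold change was -0.03 ± 0.04 (SE). Among the other members of the family Gpx3, the plasma form, was at 0.108 and 0.246 CPM, and Gpx2 and Gpx5 were at 0 in all libraries.

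Of the peroxiredoxins Prdx1 and Prdx6 were higher in LM2. Prdx1, the main cytosolic peroxiredoxin, had a CPM of 433, 439 and 409 in Parental and 524, 506 and 505 in LM2, with no overlap and a log2 fold change of 0.26 ± 0.03 (SE). Prdx1 lies on chromosome 4, where 829 tested genes had a median of 0.39 and 87.8% were higher in LM2. Prdx1 was thus nearer to 0 than the median of its chromosome, and the part of that chromosome-wide difference was not tested. Other genes hold 15.4% of the 31-base words of Prdx1.

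Prdx6, which also reduces phospholipid peroxides and takes its electrons from glutathione, had a CPM of 189, 184 and 189 in Parental and 215, 211 and 211 in LM2. The lines did not overlap, and the log2 fold change was 0.18 ± 0.02 (SE). Most of its TPM fell on transcripts not annotated as protein coding: Prdx6-207, a processed transcript, took 47.6% in Parental and 50.4% in LM2, and Prdx6-208, annotated for nonsense-mediated decay, took 35.7% and 36.6%. The protein-coding transcripts together were at 44.3 ± 5.15 TPM in Parental and 39.4 ± 4.13 TPM in LM2 (SD, n = 3 each), a log2 ratio of -0.17, against 0.20 for the whole gene. In counts the ratio of the same transcripts was 0.02. Within them Prdx6-202 was at 24.2 and 28.2 TPM and Prdx6-201 at 20.1 and 11.1 TPM. Only 3.06% of the 31-base words of Prdx6-207 and 2.29% of those of Prdx6-208 are absent from the other Prdx6 transcripts, so the sign for coding transcripts rests on a weakly determined split.

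Prdx4, the peroxiredoxin of the endoplasmic reticulum, had a CPM of 30.4, 28.9 and 26.8 in Parental and 26.5, 28.2 and 26.7 in LM2. The libraries overlapped, and the log2 fold change was -0.08 ± 0.05 (SE). The summed TPM of the endoplasmic reticulum members Gpx8 and Prdx4 was 128 ± 6.04 in Parental and 126 ± 1.85 in LM2, whereas that of the cytosolic members Sod1, Prdx1 and Prdx6 was 1911 ± 10.9 and 2248 ± 41.3 (SD, n = 3 each). The cytosolic sum counts all transcripts of Prdx6, with most of its TPM on those not annotated as protein coding. The other peroxiredoxins did not follow Prdx1: the cytosolic Prdx2 fell 1.19-fold (edgeR adjusted p = 2.57e-06), the mitochondrial Prdx3 fell 1.19-fold (1.03e-07), and Prdx5 (39.6 and 41.6 CPM) did not pass. Prdx2 lies on chromosome 8, where the median of 702 tested genes was -0.31, a shift whose part was not tested.

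**Figure D2:**
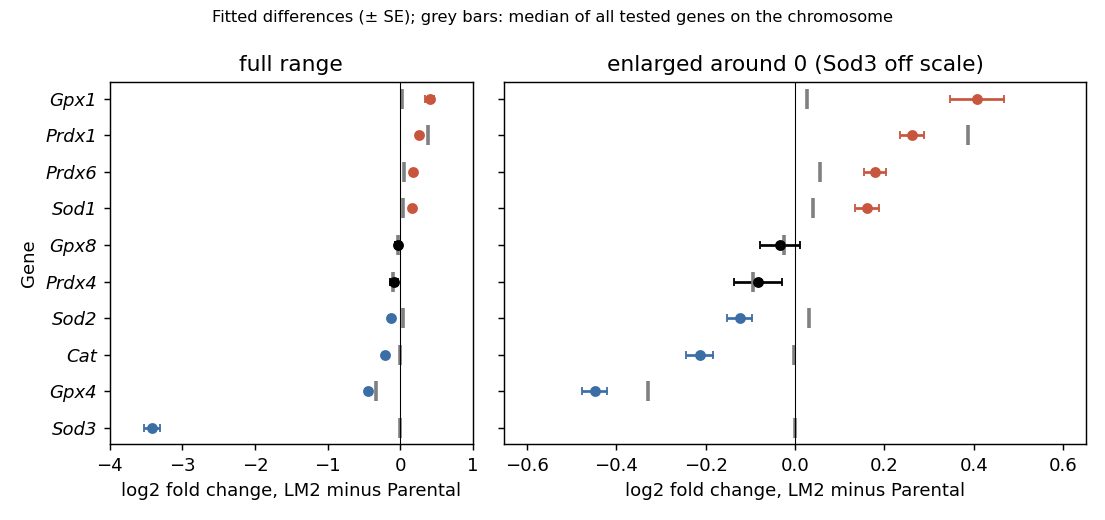
Log2 fold change (LM2 minus Parental, horizontal axis) of each member with its SE, on the full range (left) and enlarged around 0 (right, without Sod3). Red points had an adjusted p below 0.05 and were higher in LM2, blue points were lower, black points did not pass, and grey bars give the median of all tested genes on the same chromosome. Sod3 stood at -3.41, and Gpx4 and Prdx1 lay on chromosomes whose own medians were -0.33 and 0.39.

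Levels between genes were compared in TPM summed over all transcripts of a gene. For Sod2 and Prdx6 most of that TPM lay on transcripts not annotated as protein coding, a weakly determined split. The protein-coding transcripts of Sod2 were at 12.7 TPM in Parental and 10.8 TPM in LM2, those of Prdx6 at 44.3 and 39.4 TPM. On that scale both genes would stand below Prdx4 (52.7 and 50.8 TPM). In Parental the order was Sod1 (933 ± 7.71), Prdx1 (695 ± 14.7), Gpx4, Prdx6 (282 ± 5.78), Gpx1, Sod2 (150 ± 2.76), Gpx8 (74.5 ± 2.54), Cat (63.1 ± 0.695), Prdx4 (53.9 ± 3.50) and Sod3 (6.26 ± 0.377), each as mean ± SD TPM (n = 3). No neighbours in that order overlapped in library range, although Gpx4 and Prdx6 came close, with 287 TPM in the lowest Gpx4 library and 286 TPM in the highest Prdx6 library. In LM2 the order was Sod1 (1067 ± 23.7), Prdx1 (856 ± 15.4), Gpx1, Prdx6 (325 ± 2.88), Gpx4, Sod2, Gpx8, Cat (55.3 ± 1.80), Prdx4 (52.0 ± 2.40) and Sod3 (0.596 ± 0.0835). There Gpx1 overlapped Prdx6, and Cat overlapped Prdx4. All 10 genes together held 2790 ± 21.2 TPM in Parental and 3128 ± 70.0 TPM in LM2. Unlike CPM, none of the TPM sums given here was TMM scaled. For every member the log2 ratio of mean TPM lay above the fitted log2 fold change, with 0.19 and 0.16 for Sod1.

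**Figure D3:**
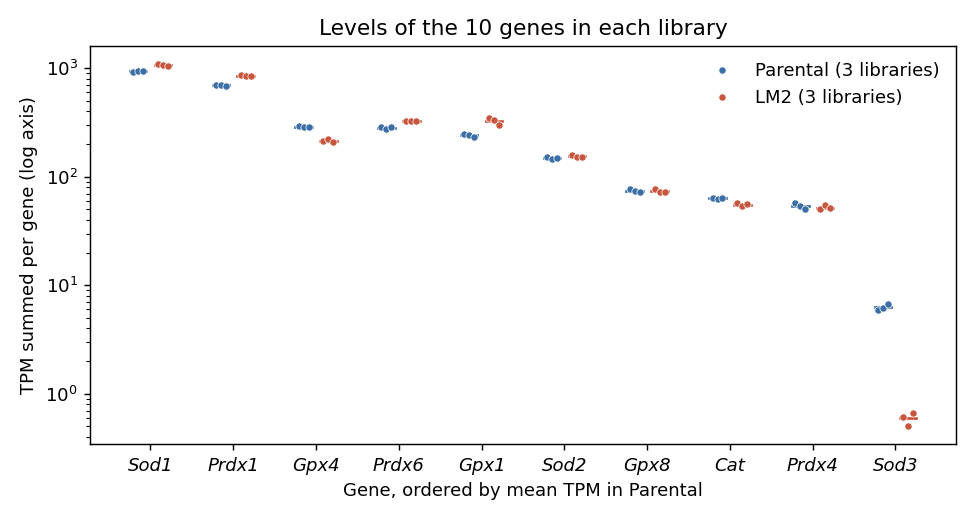
TPM summed over all transcripts of a gene, coding or not (vertical log axis), in each of the 6 libraries, with genes ordered by their Parental mean. Points are libraries of Parental (blue) and LM2 (red), and bars are means. Sod1 and Prdx1 led in both lines, Gpx4 and Gpx1 traded places, and Sod3 lay at 6.26 TPM in Parental and 0.596 TPM in LM2.

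Promoters were read because several of these enzymes are known targets of the transcription factor NRF2, which binds the antioxidant response element. RefSeq promoters (GRCm38.p6, 250 bases before to 50 after a start site) matched 8 of the 10 members by symbol, all but Sod3 and Prdx6. The core of the element, TGACNNNGC on either strand, was found in 2 of the 11 promoters of these 8 members, those of Sod1 and Prdx1, and in 12.4% of all 32851 promoters of the table. Counted by gene, that is 2 of 8 members and 13.99% of 27025 genes. Both matched promoters are shown up to the base before the start site, with the match in capitals as it reads on the gene's strand, Sod1 at chr16:90220512-90220761 (plus strand) and Prdx1 at chr4:116685349-116685598 (plus strand).
Sod1: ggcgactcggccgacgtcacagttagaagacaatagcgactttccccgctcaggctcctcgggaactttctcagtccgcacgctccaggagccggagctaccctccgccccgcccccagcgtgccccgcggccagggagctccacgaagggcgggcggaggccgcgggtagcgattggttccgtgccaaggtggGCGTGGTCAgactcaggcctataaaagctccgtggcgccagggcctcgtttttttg
Prdx1: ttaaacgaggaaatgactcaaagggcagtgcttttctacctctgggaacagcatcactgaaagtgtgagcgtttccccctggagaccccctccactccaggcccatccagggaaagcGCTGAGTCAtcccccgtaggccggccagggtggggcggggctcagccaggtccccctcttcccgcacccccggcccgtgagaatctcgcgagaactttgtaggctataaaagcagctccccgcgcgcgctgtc
The match began 56 bases before the start site of Sod1 and 133 bases before that of Prdx1, on the opposite strand in both. In Prdx1 it overlaps a match to the AP-1 motif TGANTCA, which occurs in 7.81% of all promoters. Gpx1, which was also higher in LM2, had no match in its window. Nfe2l2, the gene of NRF2, rose 1.38-fold from 77.2 ± 3.06 to 107 ± 2.00 CPM (edgeR adjusted p = 3.55e-11), its repressor Keap1 did not pass (58.4 and 56.9 CPM), and its competitor Bach1 rose 1.27-fold.

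The genes around these enzymes were taken from 10 lists of textbook membership. Of 115 tested genes 46 rose, 41 fell and 28 did not pass, which is 75.7% called beside 62.4% of all genes, and their median log2 fold change was 0.01 beside -0.0037 over all genes. The counts of each list stand beside 31.4% of all tested genes higher and 31.1% lower. Nothing is read from them, since the lists were written with earlier results known. Several of these genes lie on chromosomes that differed as a whole. Of 11 tested list genes on chromosome 4, 10 rose, beside 87.8% of all its tested genes higher in LM2, passed or not. Of 6 on chromosome 8, with a median of -0.31 over all its genes, 5 fell, and of 7 on chromosome 10, 4 fell.

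Thioredoxin recharges Prdx1 and its relatives, and 3 of 11 tested genes of that system rose and 4 fell (median -0.06). Txn1, the cytosolic thioredoxin, rose 1.24-fold from 416 ± 7.21 to 516 ± 17.7 CPM (edgeR adjusted p = 1.03e-09), and the sestrin Sesn2 rose 1.67-fold. Both lie on chromosome 4, as Prdx1 does. Txnip, which binds and inhibits thioredoxin, rose 2.17-fold from 10.6 to 22.9 CPM. Srxn1, which repairs overoxidised peroxiredoxins, fell 1.08-fold. The reductase Txnrd1, at 412 and 395 CPM, did not pass, but it did, as lower, without a low-count filter, with a replicate block and without LM2 replicate 1 (edgeR adjusted p = 0.00321, 0.0411 and 0.0126).

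Glutathione and NADPH supply peroxidases such as Gpx1, and of 17 tested genes 5 rose and 8 fell (median -0.06). Gss, which completes glutathione, fell 1.33-fold from 41.0 ± 1.29 to 30.9 ± 0.0553 CPM, and glutaredoxin Glrx fell 1.47-fold (edgeR adjusted p = 4.14e-08 and 5.77e-09). Of the enzymes that make NADPH, Me1 rose 1.55-fold and Pgd, on chromosome 4, rose 1.41-fold. Gclc, the rate-limiting enzyme of glutathione synthesis, at 146 and 145 CPM, and G6pdx, at 455 and 450 CPM, did not pass.

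Metal supply was called in full: of 9 tested genes 5 rose and 4 fell (median 0.16). The copper transporter Slc31a1 rose 1.26-fold and its relative Slc31a2 2.23-fold from 16.2 ± 1.08 to 36.1 ± 1.39 CPM, both on chromosome 4. Atox1, which carries copper to the secretory pathway, fell 1.21-fold from 105 ± 1.79 to 87.1 ± 4.16 CPM (edgeR adjusted p = 2.37e-07). Atp7a, of the same list, rose 1.17-fold from 20.3 ± 0.112 to 23.8 ± 1.84 CPM (edgeR adjusted p = 0.00161). Any part of either in the level of Sod3 was not tested. The metallothioneins Mt1 and Mt2, which bind zinc and copper, fell 1.38-fold and 1.12-fold and lie on chromosome 8.

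Selenocysteine insertion, needed for Gpx1 and Gpx4, went both ways, with 4 of 11 tested genes higher and 5 lower (median -0.03). Pstk, a kinase of the selenocysteine tRNA, fell 1.43-fold and Sepsecs 1.22-fold, whereas the selenocysteine lyase Scly rose 1.48-fold (edgeR adjusted p = 4.05e-06, 1.69e-05 and 8.15e-09). Secisbp2 and Eefsec, which deliver the amino acid at the ribosome, did not pass (31.3 and 30.5 CPM for Secisbp2, 30.9 and 31.1 CPM for Eefsec). Of 11 other selenoproteins 5 rose and 3 fell (median 0.09). Selenow rose 1.83-fold from 45.4 ± 1.92 to 83.3 ± 11.3 CPM (edgeR adjusted p = 0.00298), and Selenom rose from 22.6 to 33.8 CPM. Selenot, a selenoprotein of the endoplasmic reticulum, fell from 213 to 177 CPM.

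Among 15 tested sources of superoxide and peroxide 8 rose and 2 fell (median 0.21). Xdh, xanthine dehydrogenase, rose 1.51-fold from 90.7 ± 2.87 to 137 ± 9.56 CPM (edgeR adjusted p = 1.54e-06), Qsox1, a sulfhydryl oxidase of the secretory pathway, 1.49-fold and the endoplasmic reticulum oxidase Ero1b 1.70-fold. Maoa fell 1.28-fold. The phagocyte oxidase gene Cybb was at 0 in every library, and Nox1 was at 0.0963 and 0.186 CPM. Nox4 was low and fell 1.93-fold from 1.19 to 0.618 CPM (edgeR adjusted p = 0.00657). Duox1, lower still, rose 3.31-fold from 0.173 to 0.595 CPM (edgeR adjusted p = 0.0221).

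Of 10 tested genes of lipid peroxidation 1 was higher and 7 were lower (median -0.20), beside 31.4% and 31.1% of all tested genes. The list joins genes of differing function, so its count has no single meaning. Aifm2, a membrane quinone reductase that limits lipid peroxides beside Gpx4, fell 1.39-fold and lies on chromosome 10. Dhodh, a mitochondrial enzyme that reduces ubiquinone, fell 1.75-fold and lies on chromosome 8, and Acsl4, which loads polyunsaturated fatty acids, fell 1.36-fold (edgeR adjusted p = 2.44e-07, 5.77e-12 and 3.06e-08). Gch1, the first enzyme of tetrahydrobiopterin synthesis, rose 9.38-fold from 1.71 ± 0.0922 to 16.1 ± 1.39 CPM. Of the 12 tested regulators 8 rose and 2 fell (median 0.24), with Foxo3 up 1.38-fold and the deacetylase Sirt1 down 1.35-fold, both on chromosome 10.

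**Figure D4:**
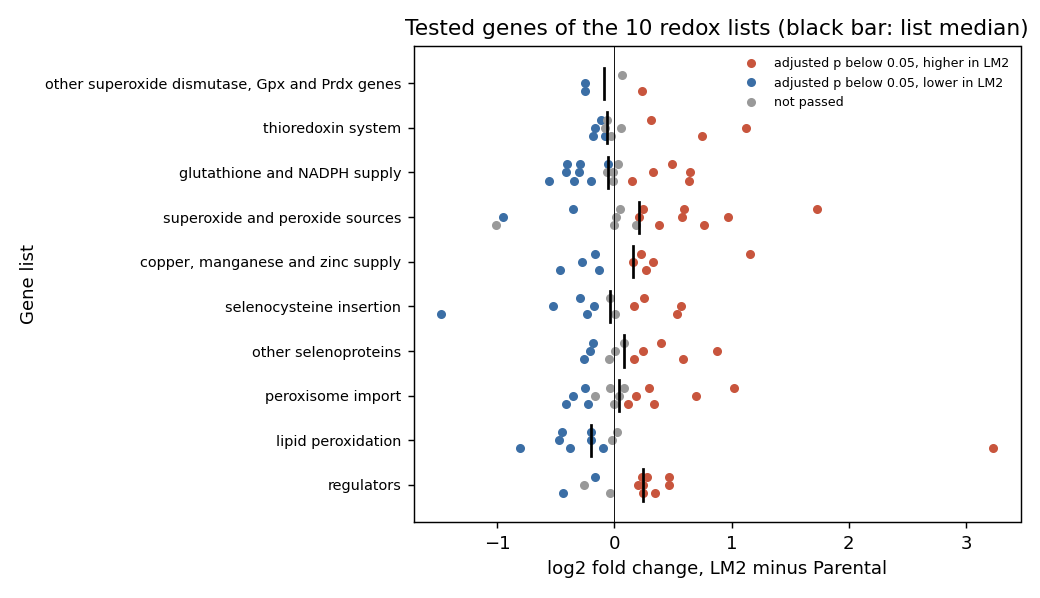
Log2 fold change (LM2 minus Parental, horizontal axis) of every tested gene in the 10 redox lists, with red for higher in LM2, blue for lower and grey for not passed at an edgeR adjusted p of 0.05. Black bars are list medians, from -0.20 for lipid peroxidation to 0.24 for regulators, and Gch1 is the rightmost point.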

How the data were processed

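RNA of 2 lines, 3 libraries each, was measured; groups and replicate numbers came from sample titles. The authors deposited estimated counts, TPM and transcript lengths for 117486 transcripts per library, made with kallisto 0.46.2 on GRCm39, per the submitters' processing notes. The authors also deposited log2 fold changes per gene (edgeR 3.32.1 in those notes); base and direction were read from their closeness to the values computed here. Transcript set and strand setting were not stated.

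Transcripts were matched by Ensembl identifier to GENCODE M21 (GRCm38), 99.1% of them, and 0.426% to 0.448% of counts stayed unmatched and out of library sizes. Counts were summed per gene, rounded, filtered with filterByExpr, scaled with TMM and fitted with the robust quasi-likelihood test of edgeR 4.0.16 (R 4.3.3) with Benjamini-Hochberg adjustment. Standard errors were approximated from the F statistic. Scripts were tested on simulated data. Limma 3.58.1 (voom), DESeq2 1.42.0, other scalings and filters, effective length offsets and each library left out were alternatives. Members and lists were chosen with earlier results of these data known. From each list up to 3 called genes per direction (at least 5 CPM) and 2 abundant genes that did not pass were eligible for naming. Some are left out for length. Atp7a, Nox4 and Duox1 were named beyond this rule. Nnt, with 2 gene identifiers, was not used. Ero1b is Ero1lb in the annotation. The AP-1 motif search and the view of chromosomes 4, 8 and 10 over the lists were added after seeing the data.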

Additional observations from a re-analysis of the deposited data

How the results depend on the processing

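The members kept 4 calls on the higher side under each of the 13 alternatives of the fit, and 4 on the lower side except with effective length offsets, which left 3. Sod3 ranged from -3.50 to -3.31 with a library left out. Sod2 moved to 0.0069 with effective length offsets (edgeR adjusted p = 0.890) and to 0.043 in TPM, where the libraries of the lines overlapped. Prdx6 moved to -0.17 in TPM of protein-coding transcripts (44.3 ± 5.15 in Parental and 39.4 ± 4.13 in LM2, SD) and to 0.02 in their counts. Called genes numbered 3519 to 4200 higher and 3466 to 4519 lower. With a replicate block there were 4149 and 4101. Same-numbered libraries did not deviate together (correlations -0.08, 0.05 and 0.01), so the numbers were not taken as pairs.

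Of the 79 other genes followed through the alternatives, 64 kept direction and side in every fit. Among those that lost their calls with effective length offsets were Txnrd2, Selenoi and Sp1 (adjusted p = 0.0677, 0.338 and 0.0608). Calls were gained by Txnrd1, Rac1 (size factors, DESeq2 and a 1 CPM filter), Nxn (without LM2 replicate 2) and Pi4k2b (without LM2 replicate 2 and with effective length offsets). Some that did not pass reversed: without a low-count filter Qsox2 (-0.023), Eefsec (-0.014) and Selenof (-0.014); with effective length offsets Selenof (-0.0072), Pex13 (0.13) and Adgra3 (0.0066). With a library left out, Qsox2 ranged from -0.016 to 0.0087, Eefsec from -0.033 to 0.042, Selenof from -0.045 to 0.033, Ftl1 from -0.026 to 0.060 and Kcnip4 from -0.82 to 0.076. The cause was not tested.

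As shares of counts in place of TPM, leading transcripts held, in Parental and LM2, 98.5% and 98.3% (Sod1-201), 24.9% and 28.8% (Sod2-204), 42.5% and 42.6% (Gpx1-202), 93.2% and 93.8% (Gpx8-201), 26.5% and 26.3% (Prdx1-205) and 34.4% and 36.2% (Prdx6-207). Counts are per read and TPM per length, which sets these moves. With 151 LM2 counts, Sod3 is the member most limited by depth.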
